A study of Homo sapiens with 39 samples.

Results

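The second day of untreated culture was examined in U937, an established human cell line derived from a histiocytic lymphoma and grown in suspension as immature, monocyte-like cells. The 3 arrays of untreated cells collected at 48 h were compared with the 3 arrays of untreated cells collected at 24 h, which makes 6 of the 39 arrays of the study, over all 49293 probe sets that are not controls. The study exposed exponentially growing cells to 1 of 3 guanine-rich oligonucleotides, Pu27, Pu9- or Pu5-, at 10 µM for 24, 48 or 72 h, beside untreated cells at 0, 24, 48 and 72 h, with 3 arrays in each of 13 groups. No oligonucleotide or other agent was given to the cells compared here. All groups grew in RPMI-1640 with fetal bovine serum and antibiotics, and all were 1 line, obtained from a cell repository. Cells in the exponential phase of growth were seeded into small flasks, and the labels say nothing of feeding between the times. Pellets were stored in TRIzol until 3 repeat experiments had been collected. Whether the repeats were separate cultures is not stated, and the p-values below measure only the spread between arrays, which may be technical.

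Monocytic cells carry a set of inflammatory genes, among them chemokines and tumour necrosis factor, that are switched on and off within hours through transcription factors such as NF-kB and AP-1. Growing cells also run large coordinated programmes: ribosome assembly in the nucleolus, chaperones that fold new proteins, and the proteasome that degrades them. Other programmes are known for answering to supply, such as the ATF4 genes of amino acid synthesis, the SREBP genes of sterol and fatty acid synthesis, and genes held down by growth factor and nutrient signals and released by FOXO or MondoA factors.

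Values are log2 signals normalised by RMA, which forces every array to a similar distribution; total RNA per cell is therefore not measured. The median probe set of the 6 arrays lay between 5.88 and 5.92. The defining myeloid genes LYZ (13.04 at 24 h and 13.05 at 48 h), ELANE (11.69 and 12.25) and CEBPA (11.39 and 11.2) were high, whereas MPO (4.98 and 4.89) and SPI1 (5.46 and 5.22) lay below the array median. Of 7 markers of mature monocytes and macrophages the median level was 3.35 at 24 h and 3.57 at 48 h, with CD14 at 3.26 and 3.57. Markers of T, erythroid, epithelial and fibroblast cells had median levels of 4.6 to 6.19 at 24 h. Of the B cell markers PAX5 stood at 9.09 and 9.15, while MS4A1 stood at 3.79 and 3.89. In a bulk sample, fewer cells of a type and less RNA per cell cannot be told apart. The ACTB 3' minus 5' signal, a sign of RNA quality, was 1.97 at 24 h and 2.02 at 48 h. That of GAPDH was 0.55 and 0.59. The hybridisation controls averaged 11.18 at 24 h and 11.65 at 48 h (SD 0.39 and 0.71), and the poly-A controls 8.49 and 7.89 (SD 1.12 and 0.75). The controls moved with the replicate number: replicate 3 had the lowest hybridisation controls in 12 of 13 groups and the highest poly-A controls in 11. Neither labels nor headers give a scan date or batch, so culture time and any array batch tied to it cannot be told apart.

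Between 24 h and 48 h, 4084 of 18132 genes changed (22.5% of genes, adjusted p under 0.05), of which 2204 rose (12.2%) and 1880 fell (10.4%). Fewer genes moved far: 210 rose at least 2-fold (1.16%) and 137 fell at least 2-fold (0.756%). Calls were rarer among dim genes: 0.853% rose and 0.604% fell under a mean log2 of 4, against 22.9% and 19.9% at 10 or more. Counts of list members below stand beside these shares. Dim genes lower the shares over all genes: of genes averaging log2 8 to 9, 22.3% rose and 21.6% fell. The median change of a called gene was 0.52 upward and -0.49 downward on the log2 scale, beside a median standard error of 0.12 and a median of 0.02 over all genes. All 3 arrays of 48 h lay outside the range of the 24 h arrays for 5849 genes (32.3%). Over probe sets, 9837 changed (20.0%), 4775 upward (9.69%) and 5062 downward (10.3%). The share of called genes that rose, 54%, was 37.1% when each array was shifted to a common median, a scaling that moved the median of all genes to -0.07. The first principal component of the 6 arrays held 63.8% of their variance and placed all 24 h arrays on one side and all 48 h arrays on the other. When all 13 arrays of replicate 2 were left out, 2371 genes changed. With the replicate number as a block 4586 genes changed, 4083 of the 4084 among them. Within the pairs of arrays of 1 number, a check added after the data were seen, the step had the called sign in all 3 numbers for 2185 of the 2204 rises and 1871 of the 1880 falls, which were called on these same arrays. The step of CCL2 was -5.4, -5.98 and -5.45 within replicates 1, 2 and 3, and that of TXNIP 2.18, 1.95 and 2.08.

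**Figure D1:**
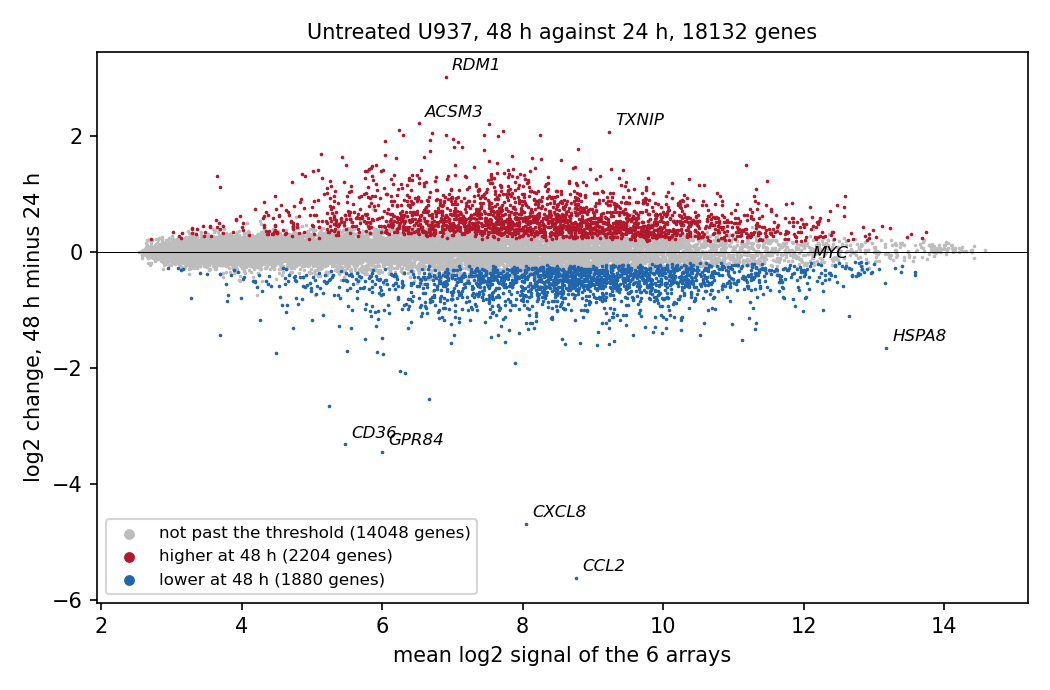
Log2 change of every gene from 24 h to 48 h in untreated U937 (vertical axis) against its mean log2 signal over the 6 arrays (horizontal axis). The 2204 genes that rose are red, the 1880 that fell blue and the rest grey; CCL2 and CXCL8 lie far below all others at -5.61 and -4.68, and RDM1 lies highest at 3.02.

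The largest change of any gene was in a chemokine. CCL2, which draws monocytes to sites of inflammation, stood at 12.3, 11.39 and 11.01 in the 24 h arrays and at 6.9, 5.42 and 5.56 in the 48 h arrays. The lowest 24 h array lay far above the highest 48 h array. The fall was 5.61 ± 0.47 (standard error, here and below) on the log2 scale, 48.8-fold (95% interval -6.57 to -4.65, adjusted p = 7.1e-11). CXCL8, the neutrophil chemokine also called interleukin 8, stood at 11.04, 10.4 and 9.72 at 24 h and at 6.09, 5.54 and 5.48 at 48 h. It fell 25.7-fold (-4.68 ± 0.37, adjusted p = 2.2e-11), and its other 2 probe sets fell too (-4.07 and -2.91). TNF, the cytokine tumour necrosis factor, stood at 7.81, 7.09 and 7.17 and then at 5.28, 5.14 and 5.4, a 4.24-fold fall (adjusted p = 2e-10). In each of these 3 genes every 48 h array lay below every 24 h array.

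The high level at 24 h was not the level of the starting culture. CCL2 averaged 6.31 at 0 h, 11.57 at 24 h, 5.96 at 48 h and 5.14 at 72 h. CXCL8 averaged 5.81, 10.39, 5.7 and 5.49, and TNF 5.7, 7.36, 5.28 and 5.11. Steps before and after share the 24 h or 48 h arrays with the comparison made here, and these levels are given as a description.

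The other inflammatory genes moved less. Of 25 measured NF-kB and inflammatory cytokine genes 7 fell and 1 rose, or 32% called beside 22.5% of all genes, with a median of -0.22. The falls beside CCL2, CXCL8 and TNF were in CD83, a surface protein of activated antigen-presenting cells (-0.94), the chemokine CXCL2 (-0.79), and NFKBIE (-0.46) and NFKB1 (-0.33), an inhibitor and a subunit of NF-kB. CXCL2 was dim at both times (5.17 and 4.38). The chemokine CCL5 rose by 0.52. The cytokines IL1B (-0.47), IL6 (-0.19) and CXCL1 (0.03) and the prostaglandin-forming enzyme gene PTGS2 (-0.1) did not pass the test. The promoter of CXCL8 is shown because its NF-kB element is well known. RefSeq's GRCh38.p14 table gives the 250 bases before the gene start on the plus strand of chr4:73740319-73740568, with the single match to GGAANNNCC, searched on both strands, in capitals.
CXCL8: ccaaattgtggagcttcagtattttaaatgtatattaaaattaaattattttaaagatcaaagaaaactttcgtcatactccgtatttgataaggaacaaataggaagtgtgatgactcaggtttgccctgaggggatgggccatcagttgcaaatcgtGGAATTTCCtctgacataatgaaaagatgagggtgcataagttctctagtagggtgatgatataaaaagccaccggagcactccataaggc
Of 21 promoters in this list 13 held that loose pattern, as did 21.9% of all 14425 promoters matched to measured genes and 24.8% of those of genes that fell. Such a match is a description of the letters and not evidence of a bound factor.

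**Figure D2:**
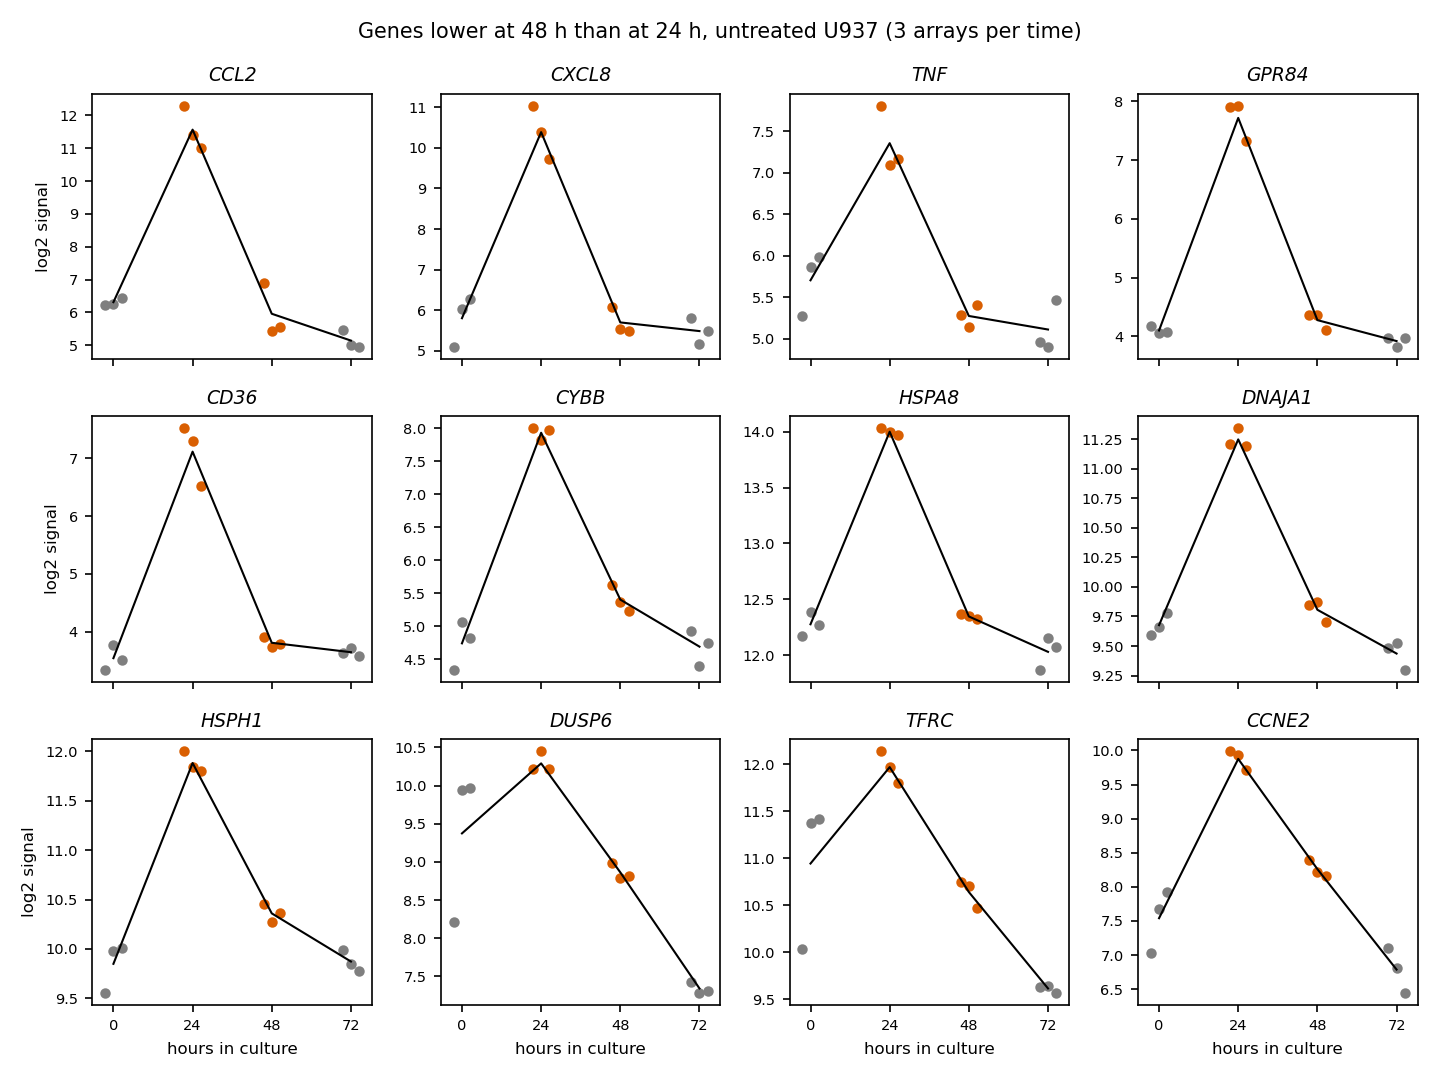
Log2 signal of 12 genes that fell from 24 h to 48 h, in every untreated array (points) with the mean of each time (line), against hours in culture. Orange points mark the compared times and grey points 0 h and 72 h; the 3 arrays of 48 h lie below the 3 of 24 h in every panel, as for CCL2 (11.57 to 5.96) and HSPA8 (14 to 12.34).

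Large falls were also found in single receptor and enzyme genes of myeloid cells. GPR84, a receptor for medium-chain fatty acids on macrophages, stood at 7.91, 7.93 and 7.32 at 24 h and at 4.36, 4.37 and 4.1 at 48 h. The scavenger receptor CD36 stood at 7.52, 7.3 and 6.53 and then at 3.91, 3.73 and 3.78. CYBB, the enzyme chain of the NADPH oxidase with which phagocytes make superoxide, stood at 8, 7.83 and 7.97 and then at 5.62, 5.36 and 5.23. No array of one time reached into the range of the other, which was a condition for naming these genes among the largest falls. These falls were 10.9-fold, 9.9-fold and 5.78-fold, with adjusted p-values of 2.9e-14, 8.6e-11 and 1.6e-11. Because the 48 h levels of all 3 lay below the array median, where RMA compresses differences, the folds may be understated.

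FPR2, a formyl peptide receptor, fell by 1.92, FCAR, the Fc receptor for immunoglobulin A, by 1.76, and ANXA1, the phospholipid-binding protein annexin A1, by 1.58. ANKRD22, an ankyrin repeat protein, fell by 2.66, KBTBD8, a substrate adaptor of a ubiquitin ligase, by 1.73 and IPCEF1, a partner of cytohesins, by 1.71. Each of these 6 genes had an adjusted p of 8.5e-07 or less. The collagenase MMP1 fell by 2.05 ± 0.67 (adjusted p = 0.023), with 24 h arrays at 8.22, 7.29 and 6.33 and 48 h arrays at 6.31, 4.76 and 4.62. Its groups nearly touched, and the call ended in 5 of 19 alternative settings (adjusted p up to 0.32, without the replicate 2 arrays).

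The list of 32 monocyte and macrophage markers did not fall as a whole. In it 9 genes fell and 2 rose, or 34.4% called beside 22.5% of all genes, with a median of -0.05. Beside CD36 and CYBB the largest falls were in FCER1G, the signalling chain shared by several Fc receptors (-1.26 ± 0.16, adjusted p = 1.6e-07), and C3AR1, the receptor of complement fragment C3a (-1.1 ± 0.18, 1.9e-05). CLEC12A, an inhibitory lectin-like receptor, rose by 0.96. The genes of the calcium-binding pair S100A8 and S100A9 fell by 1.2 and 1.56. S100A9 stood at 8.7, 8.56 and 8.33 at 24 h and at 7.59, 6.79 and 6.52 at 48 h, apart from each other but with a wide spread at 48 h. Without all arrays of replicate 2 neither S100A8 nor S100A9 was called (adjusted p = 0.22 and 0.075). Of 17 genes of antigen presentation 6 rose and 1 fell (median 0.2), beside 12.2% of all genes that rose. The rises were led by PSMB9, an immunoproteasome subunit (0.68). HLA-DRB1 and CD74, of MHC class II, rose by 0.42 and 0.4. That count was 1 without the replicate 3 arrays.

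Genes of signalling through ERK, the kinase that transmits growth factor signals, were called in part. Of 30 immediate early and ERK feedback genes 15 fell and 1 rose, with a median of -0.35, beside 10.4% of all genes that fell. DUSP6, a phosphatase that switches off ERK, stood at 10.21, 10.45 and 10.21 at 24 h and at 8.98, 8.79 and 8.82 at 48 h. The groups were separate and the fall was 1.43 ± 0.25 (adjusted p = 4.1e-05). DUSP5, another ERK phosphatase, fell by 1.44, SPRY2, an inhibitor of receptor signalling, by 1.39, and the AP-1 subunit JUN by 1.2. SPRY4, from the family of SPRY2, was the exception and rose by 1 ± 0.3 (adjusted p = 0.013), but its other 2 probe sets gave -0.64 and 0. The rapid response genes FOS (-0.03), EGR1 (-0.09) and JUNB (-0.13) did not pass the test.

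Ribosome assembly had the lowest median of the lists examined. Of 31 measured genes of ribosome biogenesis and the nucleolus 26 fell and none rose, with a median of -0.69, beside 10.4% of all genes that fell. The list averaged 9.46, 10.3, 9.67 and 9.17 at 0, 24, 48 and 72 h, so that the 24 h level was not that of the starting culture. NIP7, which takes part in maturation of the large subunit, stood at 10.05, 10.05 and 9.82 at 24 h and at 9, 8.64 and 8.75 at 48 h. TSR1, needed for maturation of the small subunit, stood at 10.68, 10.57 and 10.51 and then at 9.63, 9.49 and 9.61. In both genes the times were fully separate, and the falls were 1.18 ± 0.14 and 1.01 ± 0.08 (adjusted p = 4.2e-08 and 6.6e-11). UTP14A and UTP20, components of the small subunit processome, fell by 1.17 and 1.09. UTP14A was dim, at 5.58 and then 4.41, below the array median at both times. The 5 members not called were POLR1B (-0.28), WDR12 (-0.26), NOLC1 (-0.15), FBL (-0.06) and NPM1 (-0.04). The lowest count of falls over the alternative settings was 20, without the replicate 2 arrays.

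The genes listed for proteins of the finished ribosome did not move with those of its assembly factors. Of 34 measured cytosolic ribosomal protein genes none fell and 3 rose, RPL13 (0.32), RPL3 (0.3) and RPL7 (0.25), with a median of 0.07. Under the shift to a common median it was -0.02, and none of the 3 calls held without the replicate 3 arrays. The ribosomal proteins averaged 13.68 to 13.72 over the list in the 24 h arrays and 13.78 to 13.79 in the 48 h arrays. The assembly factors averaged 10.25 to 10.36 and 9.61 to 9.71. Whether changes are compressed at the high level of the ribosomal proteins, up to 14.57 for RPL32 at 24 h, was not tested. RPL35A, a ribosomal protein gene outside the list, fell by 1.54 on its brightest probe set. Its others gave -0.11 and -0.22 and were not called. Of 24 mitochondrial ribosomal protein genes 9 fell and none rose (median -0.17), beside 10.4% of all genes that fell. The falls were led by MRPL20 (-0.77), MRPS12 (-0.65), MRPS10 (-0.49) and MRPS7 (-0.48), and 2 genes fell without the replicate 2 arrays.

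MYC, the transcription factor known as a driver of ribosome assembly and the gene whose promoter gave Pu27 its sequence, did not pass the test. It stood at 12.05, 12.19 and 12.18 at 24 h and at 12.1, 11.87 and 11.81 at 48 h. The groups overlapped, and the difference was -0.22 ± 0.11 (95% interval -0.43 to 0, adjusted p = 0.16). Of 12 genes of the MYC and MAX network, MAX, the partner of MYC, fell by 0.41, and the antagonists MXI1, MXD3 and MXD4 rose by 0.59, 0.52 and 0.45. The call of MXD4 was lost in 4 settings, that of MXD3 in 2 and that of MAX in 1. The E-box CACGTG, which MYC and its relatives can bind, was searched in the promoters of the assembly genes. Those of UTP14A and UTP20 are shown with the match in capitals, from RefSeq's GRCh38.p14 table, chrX:129905914-129906163 and chr12:101279855-101280104, both on the plus strand.
UTP14A: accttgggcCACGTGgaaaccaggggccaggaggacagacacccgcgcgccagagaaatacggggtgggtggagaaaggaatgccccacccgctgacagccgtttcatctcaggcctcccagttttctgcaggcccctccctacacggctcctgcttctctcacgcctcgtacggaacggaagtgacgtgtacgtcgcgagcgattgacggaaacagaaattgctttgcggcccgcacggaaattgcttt
UTP20: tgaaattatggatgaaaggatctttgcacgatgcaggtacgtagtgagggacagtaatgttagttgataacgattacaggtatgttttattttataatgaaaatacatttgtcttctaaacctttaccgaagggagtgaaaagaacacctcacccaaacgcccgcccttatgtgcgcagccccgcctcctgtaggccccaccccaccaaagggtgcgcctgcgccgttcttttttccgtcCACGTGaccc
The match began 241 bases before the gene start in UTP14A and 10 bases before it in UTP20. They were picked because they hold a match: NIP7 and TSR1 hold none in the 300 bases from 250 before to 50 after the start. The letters were present in 11 of 26 promoters of the list (42.3%), in 8.82% of all promoters, in 13.1% of those of genes that fell and in 8.84% of those of genes that rose.

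Of 22 measured heat shock protein and cytosolic chaperone genes 18 fell and none rose, with a median of -0.58, beside 10.4% of all genes that fell. The list averaged 10.12, 10.92, 10.28 and 10.02 at 0, 24, 48 and 72 h. HSPA8, the constitutive HSP70 chaperone, stood at 14.03, 14 and 13.97 at 24 h and at 12.37, 12.35 and 12.32 at 48 h. HSPH1, which exchanges nucleotides for HSP70, stood at 12, 11.84 and 11.8 and then at 10.45, 10.27 and 10.36. DNAJA1, an HSP70 co-chaperone, stood at 11.21, 11.34 and 11.19 and then at 9.85, 9.87 and 9.7. Arrays of one time differed by a small fraction of the step between times. HSPA8 fell 3.15-fold (-1.65 ± 0.1), HSPH1 2.87-fold (-1.52 ± 0.11) and DNAJA1 2.71-fold (-1.44 ± 0.08), with adjusted p-values of 2.9e-14, 2.6e-12 and 2.9e-14. All other probe sets of these genes, 8, 7 and 4 of them, were called in the same direction. CHORDC1, an HSP90 partner, fell by 1.12. The mitochondrial chaperonin HSPD1 (-0.16), the small heat shock protein HSPB1 (-0.08) and the regulator HSF1 (-0.07) did not pass the test.

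HSF1, the factor of the heat shock response, binds inverted repeats of GAA. The promoters of HSPA8, on the minus strand of chr11:123062137-123062386, and DNAJA1, on the plus strand of chr9:33025023-33025272, are shown from the same GRCh38.p14 table, each read 5′ to 3′ toward the gene start with GAANNTTC in capitals.
HSPA8: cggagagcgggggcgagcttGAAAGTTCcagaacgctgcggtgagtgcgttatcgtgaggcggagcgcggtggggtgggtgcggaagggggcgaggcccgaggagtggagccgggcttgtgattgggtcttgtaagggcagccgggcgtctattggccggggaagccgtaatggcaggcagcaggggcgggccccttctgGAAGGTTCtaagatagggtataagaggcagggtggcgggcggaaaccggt
DNAJA1: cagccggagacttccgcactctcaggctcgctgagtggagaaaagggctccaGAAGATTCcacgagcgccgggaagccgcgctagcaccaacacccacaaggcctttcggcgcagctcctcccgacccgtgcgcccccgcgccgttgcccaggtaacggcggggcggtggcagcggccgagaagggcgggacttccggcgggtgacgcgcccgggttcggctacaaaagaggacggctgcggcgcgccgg
HSPA8 held 2 matches, 230 and 50 bases before the start, and DNAJA1 1 match before the start and another just after it. HSPH1 held none. The pattern was present in 6 of 20 promoters of the list (30%), in 5.41% of all promoters and in 4.07% of those of genes that fell.

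Of 24 measured proteasome subunit genes 21 fell and none rose, with a median of -0.57, beside 10.4% of all genes that fell. The list averaged 10.65, 11.4, 10.82 and 10.46 at 0, 24, 48 and 72 h. PSMD1, a scaffold of the regulatory particle, stood at 10.94, 10.9 and 10.93 at 24 h and at 9.71, 9.46 and 9.59 at 48 h. The fall was 2.52-fold (-1.34 ± 0.08, adjusted p = 3.4e-14), with no overlap. PSMC4, an ATPase of that particle, fell by 1.17, and PSMD11 and PSMD12, lid subunits, by 0.96 and 0.93. PSMA4 (-0.18), PSMB6 (-0.18) and PSMB3 (-0.14) of the core particle were not called. Of the 20 promoters in this list 5 held TGACNNNGC, an element of the antioxidant type, beside 14.4% of all promoters.

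Of 24 genes of the unfolded protein response 10 fell and 2 rose, with a median of -0.33, beside 10.4% of all genes that fell. SDF2L1 stood at 9.94, 9.9 and 9.79 at 24 h and at 8.58, 8.45 and 8.68 at 48 h, a fall of 1.31 ± 0.12 (adjusted p = 3e-10) without overlap. The co-chaperone DNAJB11 fell by 1.13, the secreted factor MANF by 0.93, CRELD2 by 0.81, the HSP70 chaperone HSPA5 by 0.67 and the transcription factor XBP1 by 0.57. Genes of the ATF6 and IRE1 sensors themselves, ATF6 (-0.54) and ERN1 (-0.02), did not pass the test. MANF then stood at 12.07 and DNAJB11 at 10.06 at 72 h, after 11.41 and 9.44 at 48 h.

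Cell cycle genes were called in both directions. CCNE2, which encodes cyclin E2, stood at 9.99, 9.93 and 9.71 at 24 h and at 8.4, 8.22 and 8.16 at 48 h. It fell 3.06-fold (adjusted p = 2.6e-06) without overlap, a condition for naming it among the largest falls. Cyclin genes CCND3 and CCNE1 fell by 1.09 and 0.84, and CLSPN, which encodes the checkpoint adaptor claspin, by 1.14. Of 23 G1/S genes 6 fell and 3 rose (median -0.18), beside 10.4% of all genes that fell and 12.2% that rose. Dim genes, which were rarely called, lower those shares. The list averaged 8.81 at 24 h and 8.65 at 48 h. Of genes averaging log2 8 to 9, 21.6% fell and 22.3% rose. The G1/S rises were RBL2, a retinoblastoma relative (0.72), SKP2 of a ubiquitin ligase (0.61) and CDK6 (0.45). Of 37 replication genes 11 fell, among them TIPIN (-0.81), CDC6 (-0.79) and GINS3 (-0.69), and 4 rose (median -0.05). PCNA (-0.09) and MCM2 (0.17) were not called, and the falls numbered 7 without the replicate 2 arrays. That list averaged 9.7 at 24 h and 9.57 at 48 h. Of genes averaging log2 9 to 10, 21.7% fell and 23.9% rose. Of the 35 genes of G2/M and mitosis 17.1% were called, beside 22.5% of all genes. They had 3 falls, CDC20 (-0.53), CCNB1 (-0.48) and FOXM1 (-0.42), 3 rises led by CDC25C (0.46) and a median of 0.08. Under the shift to a common median that list had a median of -0.01, and the call of FOXM1 was lost in 8 settings.

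**Figure D3:**
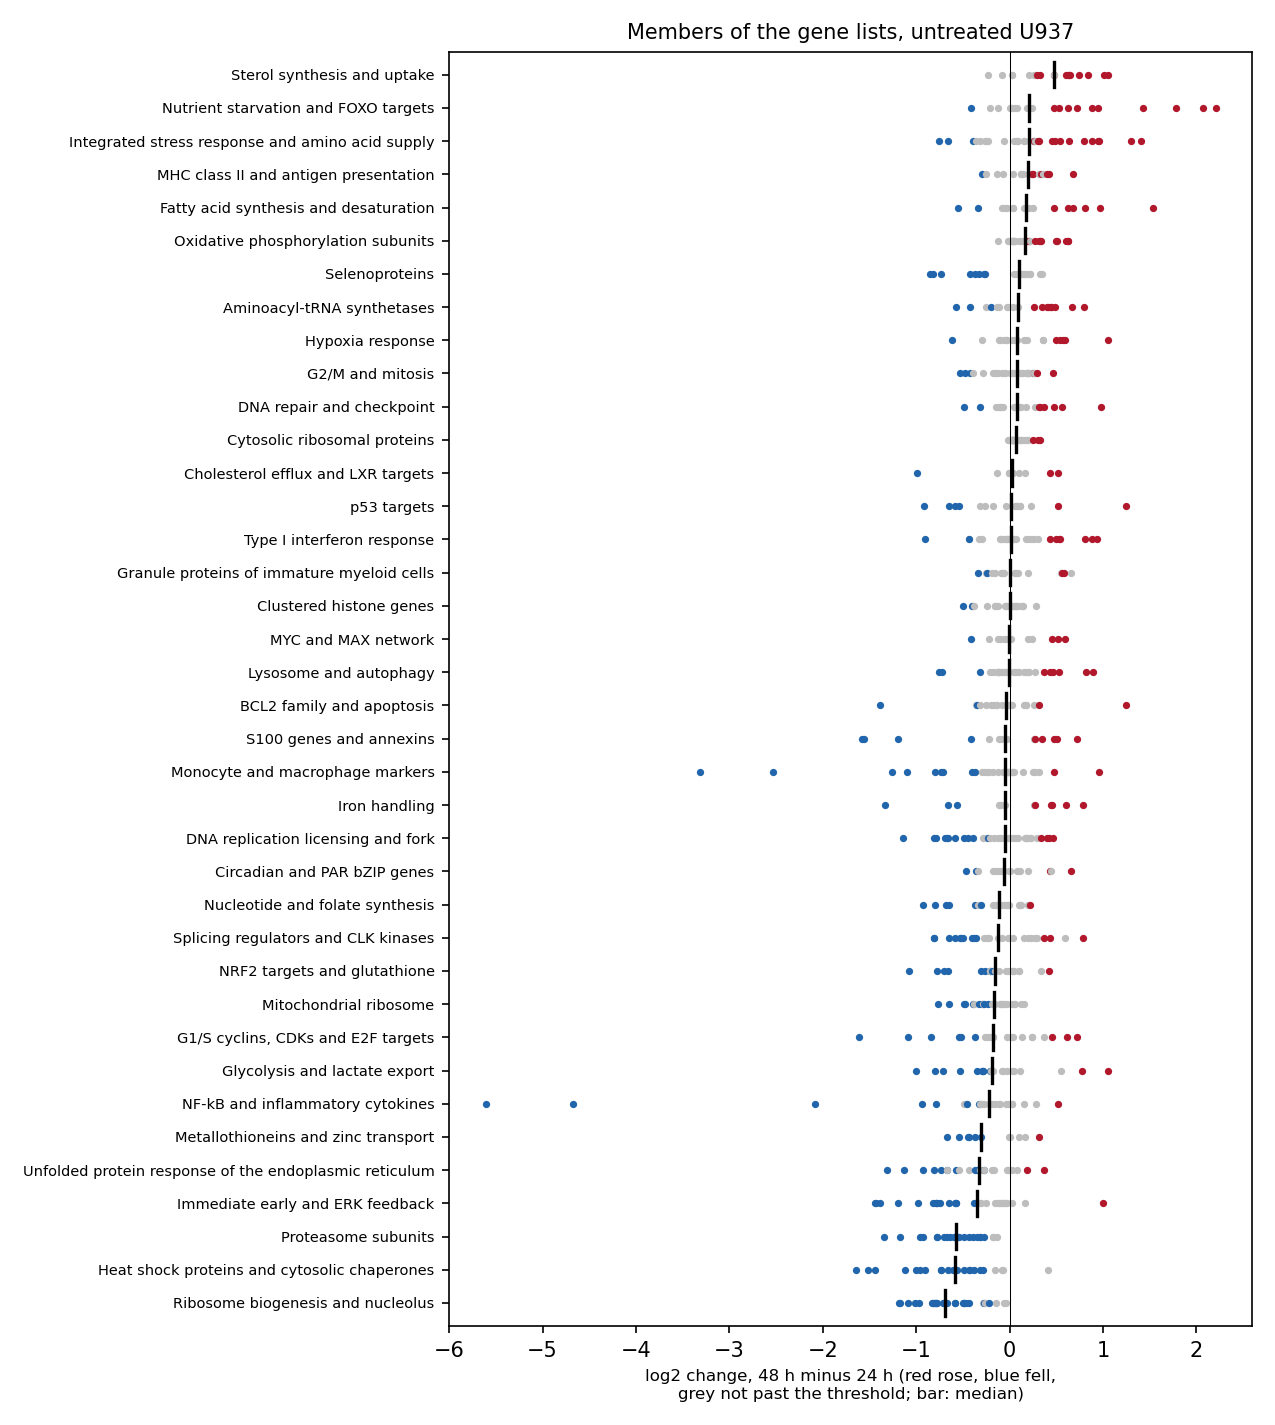
Log2 change from 24 h to 48 h of every measured member of 38 gene lists (points; red rose, blue fell, grey not past the threshold), with the median of each list as a black bar. Ribosome biogenesis (median -0.69), chaperones (-0.58) and the proteasome (-0.57) lie lowest, and sterol synthesis lies highest (0.47).

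Some genes are known to be released when nutrient or growth factor signals fade. Of 23 measured genes of nutrient starvation and FOXO targets 10 rose and 1 fell, with a median of 0.21, beside 12.2% of all genes that rose. TXNIP, which restrains glucose uptake and binds thioredoxin, stood at 7.95, 8.38 and 8.26 at 24 h and at 10.13, 10.33 and 10.34 at 48 h. KLHL24, a substrate adaptor of a ubiquitin ligase, stood at 6.09, 6.68 and 6.47 and then at 8.41, 8.89 and 8.58. TSC22D3, the glucocorticoid-induced leucine zipper protein, stood at 7.83, 8 and 7.87 and then at 9.5, 9.73 and 9.81. The groups did not overlap in any of these genes, which for TXNIP and KLHL24 was a condition for naming them among the largest rises. The rises were 4.2-fold for TXNIP (2.07 ± 0.12), 4.63-fold for KLHL24 (2.21 ± 0.19) and 3.44-fold for TSC22D3 (1.78 ± 0.17), with adjusted p-values of 2.9e-14, 8.7e-11 and 1.3e-09.

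YPEL5 rose by 1.43, PIK3IP1, an inhibitor of phosphoinositide 3-kinase, by 0.95 and CCNG2, a cyclin of non-dividing cells, by 0.88. IRS2, an adaptor of the insulin receptor, fell by 0.41, and the factors FOXO1 (0.08) and FOXO3 (0.21) were not called. In the starting culture TXNIP and TSC22D3 had stood nearer their 48 h level. TXNIP averaged 10.93, 8.2, 10.27 and 11.24 at 0, 24, 48 and 72 h, and TSC22D3 10.88, 7.9, 9.68 and 11.45. The promoter of TXNIP held no E-box of the letters CACGTG, and 3 of 20 promoters of this list held one (8.82% of all promoters). The FOXO letters GTAAACA were also in 3 of 20, beside 2.53% of all promoters and 3% of those of genes that rose. Of the 10 called members with a promoter 1 held each pattern.

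**Figure D4:**
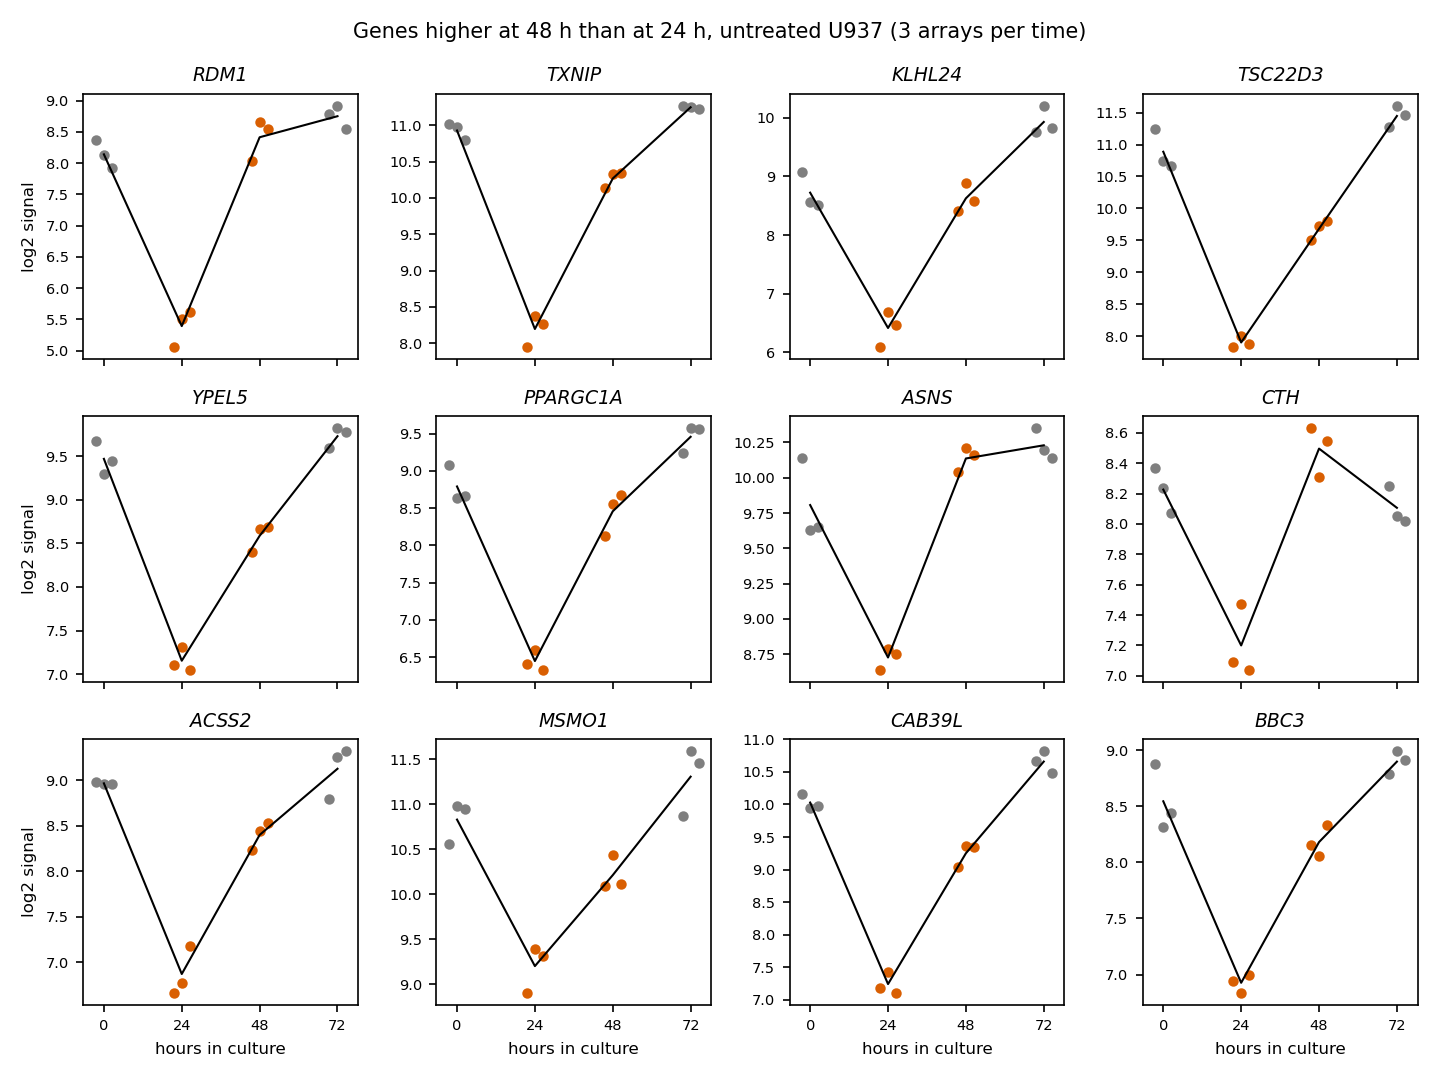
Log2 signal of 12 genes that rose from 24 h to 48 h, in every untreated array (points) with the mean of each time (line), against hours in culture. Orange points mark the compared times and grey points 0 h and 72 h; every 48 h array lies above every 24 h array, as for RDM1 (5.4 to 8.41) and TXNIP (8.2 to 10.27).

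The largest rise of all was in RDM1, an RNA-binding protein with a RAD52 motif. It stood at 5.06, 5.5 and 5.62 at 24 h and at 8.04, 8.65 and 8.55 at 48 h, an 8.09-fold rise (3.02 ± 0.19, adjusted p = 6e-14), and its other 8 probe sets were all called upward (0.31 to 2.62). ACSM3, a mitochondrial ligase of medium-chain fatty acids, rose by 2.22, BLNK, an adaptor of antigen receptor signalling, by 2.1, and the methyltransferase TMT1A by 2.09. CLEC2D, a lectin-like ligand of natural killer cell receptors, rose by 2.04, COL9A3, a collagen chain, by 2.02, SMIM14, a small membrane protein, by 2.02, and GRIP1, a PDZ scaffold, by 2. PPARGC1A, a coactivator of mitochondrial biogenesis, stood at 6.41, 6.6 and 6.33 at 24 h and at 8.13, 8.56 and 8.68 at 48 h, a 4.03-fold rise (adjusted p = 2.2e-12). CAB39L, which encodes a partner of the kinase LKB1, rose by 2.01. The zinc finger gene ZC3H6 rose by 1.95, the exonuclease domain gene EXD3 by 1.93 and NIPSNAP3B by 1.91. Lack of overlap between the times, found upward in 17.5% of all genes, was a condition for naming these 13 genes. Each had an adjusted p of 2.6e-08 or less. EXD3 rested on its probe set, since the other 4 gave -0.11 to 1.05 and 1 of them was called.

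Of 31 genes of the integrated stress response and amino acid supply 13 rose and 3 fell, with 15 not called and a median of 0.21. Of all genes 12.2% rose. As a description, the list averaged 8.98, 8.75, 8.98 and 8.93 at 0, 24, 48 and 72 h, so that 0 h lay at the 48 h level. ASNS, asparagine synthetase, stood at 8.64, 8.79 and 8.75 at 24 h and at 10.04, 10.21 and 10.16 at 48 h, a 2.66-fold rise (1.41 ± 0.12, adjusted p = 8.7e-11). CTH, which makes cysteine from cystathionine, stood at 7.09, 7.47 and 7.04 and then at 8.63, 8.31 and 8.55, a 2.46-fold rise (adjusted p = 9e-09). Both genes were separate between the times. PHGDH and PSAT1 of serine synthesis rose by 0.96 and 0.8, the stress factor DDIT3 by 0.88 and the regulator ATF4 by 0.26. The amino acid transporter chains SLC7A5 and SLC3A2 fell by 0.76 and 0.39, and ATF5 fell by 0.66; none of the list's 3 falls was called without the replicate 1 arrays. VLDLR, a lipoprotein receptor in the list, rose by 0.95. TRIB3 (-0.06), CHAC1 (0.15) and the synthesis genes PYCR1 (0.21), PSPH (0.26) and ALDH18A1 (0.08) were not called.

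ATF4 binds composite elements such as that written here as TGATGNAAN. The promoter of ASNS, on the minus strand of chr7:97872409-97872658 in GRCh38.p14, holds 1 match, 68 bases before the start, given in capitals.
ASNS: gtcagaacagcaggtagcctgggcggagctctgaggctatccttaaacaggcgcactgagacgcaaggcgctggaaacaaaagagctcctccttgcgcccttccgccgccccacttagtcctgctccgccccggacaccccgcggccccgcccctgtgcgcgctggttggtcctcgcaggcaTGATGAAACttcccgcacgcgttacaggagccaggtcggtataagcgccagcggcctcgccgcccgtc
The pattern was present in 5 of 26 promoters of the list, 2 of 15 of its called members, 2.57% of all promoters and 1.47% of those of genes that rose. Of 19 measured transfer RNA synthetases, enzymes that charge transfer RNAs, 9 rose and 3 fell, beside 12.2% and 10.4% of all genes. The rises were led by AARS1 (0.8), CARS1 (0.67) and QARS1 (0.49), and the falls by RARS1 (-0.57). The median was 0.09, and 0 with arrays shifted to a common median.

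Of 19 genes of sterol synthesis and uptake 11 rose, none fell and 8 were not called, beside 12.2% of all genes that rose. The list's median of 0.47 was the highest of the lists examined. The list averaged 9.49, 8.74, 9.17 and 9.43 at 0, 24, 48 and 72 h. MSMO1, a demethylase of sterol intermediates, stood at 8.91, 9.39 and 9.31 at 24 h and at 10.09, 10.44 and 10.11 at 48 h. It rose by 1.01 ± 0.23 (adjusted p = 0.0011), without overlap. STARD4, a carrier of cholesterol, rose by 1.05, IDI1, an isomerase of the pathway, by 0.84, and HMGCS1, its early synthase, by 0.74 ± 0.26 (adjusted p = 0.033). LSS (0.47) and SQLE (0.26) were not called. Standard errors were larger here than for the chaperones above: the call of HMGCS1 ended in 8 settings and the list's count of rises was 4 without the replicate 2 arrays. The 9 letters TCACNCCAC, of the sterol regulatory type, were in 1 of 17 promoters of the list.

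Of 16 genes of fatty acid synthesis and desaturation 6 rose, beside 12.2% of all genes, and 2 fell, with a median of 0.18. The falls were ACSL1 (-0.55) and GPAM (-0.34). ACSS2, which makes acetyl-CoA from acetate, stood at 6.67, 6.77 and 7.18 at 24 h and at 8.23, 8.44 and 8.53 at 48 h, a 2.89-fold rise (1.53 ± 0.24, adjusted p = 7.6e-06) without overlap. The desaturase SCD rose by 0.97, the regulator SREBF1 by 0.81 and the desaturase FADS1 by 0.68, while FASN (-0.08) and ACLY (-0.03) were not called. The other 2 probe sets of SREBF1 gave 0.11 and 0.26 and neither was called.

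Genes of energy metabolism were called in both directions. Both lists below averaged over log2 10, where 22.9% of genes rose and 19.9% fell, beside 12.2% and 10.4% of all genes. Of 20 glycolysis genes 9 fell and 2 rose, with a median of -0.19. The falls were led by PKM, pyruvate kinase (-1 ± 0.23, adjusted p = 0.0013), and the glucose transporter SLC2A1 (-0.8 ± 0.09, 5e-08). ALDOC, an aldolase, rose by 1.05 and PDK1, which inhibits pyruvate dehydrogenase, by 0.77. The count of falls was 4 without the replicate 2 arrays. Of 31 subunits of oxidative phosphorylation 11 rose and none fell (median 0.16), led by SDHA of complex II (0.63 ± 0.08) and NDUFB5 of complex I (0.62 ± 0.07), with NDUFS7 of complex I at 0.6 and UQCRC2 of complex III at 0.51. That count was 5 with arrays shifted to a common median.

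Genes of oxidant defence and of iron handling were called in part. Of 21 NRF2 targets and glutathione genes 8 fell and 1 rose (median -0.16), beside 10.4% of all genes that fell. The list averaged 9.13 at 24 h and 8.95 at 48 h, and of genes averaging log2 9 to 10, 21.7% fell. The 12 members not called included GCLC (-0.04), TXN (-0.01), GSR (-0.16) and SLC7A11 (0.05). GCLM, the modifier subunit of the enzyme that starts glutathione synthesis, stood at 10.12, 10.03 and 9.88 at 24 h and at 8.98, 8.83 and 8.97 at 48 h, a 2.12-fold fall (adjusted p = 7.5e-11). The detoxifying enzyme genes NQO1, SRXN1 and HMOX1 fell by 0.78, 0.7 and 0.66, with HMOX1 below the array median at both times (5.83 and 5.17). The count of falls was 4 when only the 6 compared arrays were fitted. TFRC, the transferrin receptor that brings iron into cells, fell by 1.33 ± 0.21 (adjusted p = 7.7e-06), while SLC25A37, which carries iron into mitochondria, rose by 0.78 and FECH, the last enzyme of haem synthesis, by 0.6. SLC25A37 was not called without the replicate 2 arrays (adjusted p = 0.069). Of 21 members of the BCL2 and apoptosis list 2 rose and 2 fell, or 19% called beside 22.5% of all genes, and 1 fell without the replicate 2 arrays. BBC3, the death-promoting PUMA, rose 2.38-fold (1.25 ± 0.17, adjusted p = 4.8e-07), and BCL2A1, which opposes cell death, fell 2.62-fold (-1.39 ± 0.22, 8e-06), though its other probe set gave -0.23 and was not called. MCL1, another gene that opposes cell death, fell by 0.35.

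The same step was measured in cells that had received an oligonucleotide, on arrays separate from the untreated ones. From 24 h to 48 h 3971 genes changed with Pu27 (21.9%), 4138 with Pu9- (22.8%) and 4172 with Pu5- (23.0%). Of the 4084 genes called in untreated cells, 78.1%, 81.3% and 80.5% were called in the same direction with Pu27, Pu9- and Pu5-, and 0 were called in the opposite direction. These shared calls were 80.3%, 80.3% and 78.8% of the calls of each treated arm. Of the 2204 genes that rose in untreated cells 2176, 2179 and 2176 had a positive step in the treated arms, and of the 1880 that fell 1865, 1874 and 1869 had a negative one. The treated step was a median of 0.895, 0.947 and 0.934 times the untreated step over the called genes, where a ratio below 1 is partly fixed by calling genes in the untreated arm. The 4 arms share their collection times, so an array batch tied to time cannot be told apart from culture time here either.

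Steps of single genes and lists are set side by side here. CCL2 changed by -5.61 in untreated cells and by -4.85, -6.08 and -6.04 with Pu27, Pu9- and Pu5-. HSPA8 changed by -1.65 and by -1.4, -1.45 and -1.42, and RDM1 by 3.02 and by 3.03, 3.12 and 2.75. The median over the ribosome biogenesis list was -0.69 in untreated cells and -0.5, -0.53 and -0.52 in the treated arms, and that of the proteasome -0.57 and -0.63, -0.66 and -0.59. The median of the sterol list was 0.47 and then 0.51, 0.52 and 0.53. Other lists stood further apart. The median of the integrated stress response list was 0.21 in untreated cells and 0.02, 0.1 and 0.1 with Pu27, Pu9- and Pu5-, and that of the unfolded protein response -0.33 and -0.21, -0.14 and -0.22. The G2/M list had 0.08 and -0.17, -0.02 and -0.04, and S100 genes and annexins -0.05 and 0.28, 0 and 0.01. Differences between list medians were not tested.

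The difference between a treated and the untreated step was tested for every gene. No gene passed for Pu27, Pu9- or Pu5- in limma's test (0% each), with 521 (2.87%), 412 (2.27%) and 468 genes (2.58%) at an unadjusted p under 0.05. The 3 tests share the untreated arrays. The smallest adjusted p belonged to SELENOW, which encodes a small selenoprotein. In untreated cells it stood at 7.57, 7.73 and 7.79 at 24 h and at 6.99, 6.91 and 6.99 at 48 h, and fell by 0.73 ± 0.09 (adjusted p = 1.5e-07). Its step was -0.08 with Pu27, -0.01 with Pu9- and -0.2 with Pu5-, and the difference from the untreated step was 0.66 (adjusted p = 0.25), 0.72 (0.055) and 0.53 (1). For Pu9- that difference passed with the replicate number as a block (0.72, adjusted p = 0.031) and in 6 other settings, among them without untreated 24 h replicate 1 (0.79, 0.03). HLA-DRA, an MHC class II chain, rose by 0.34 in untreated cells and by 1.17 with Pu27 (adjusted p of the difference 0.36), and its call in untreated cells was lost in 10 settings. Other small p-values were those of CDCA2, a mitotic phosphatase regulator, for Pu27 (difference -0.57), of ERICH3 and TTC21A for Pu9- (0.54 and -0.66), and of DEFB131A and FAM229B for Pu5- (-0.58 and -0.49), none of which passed.

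**Figure D5:**
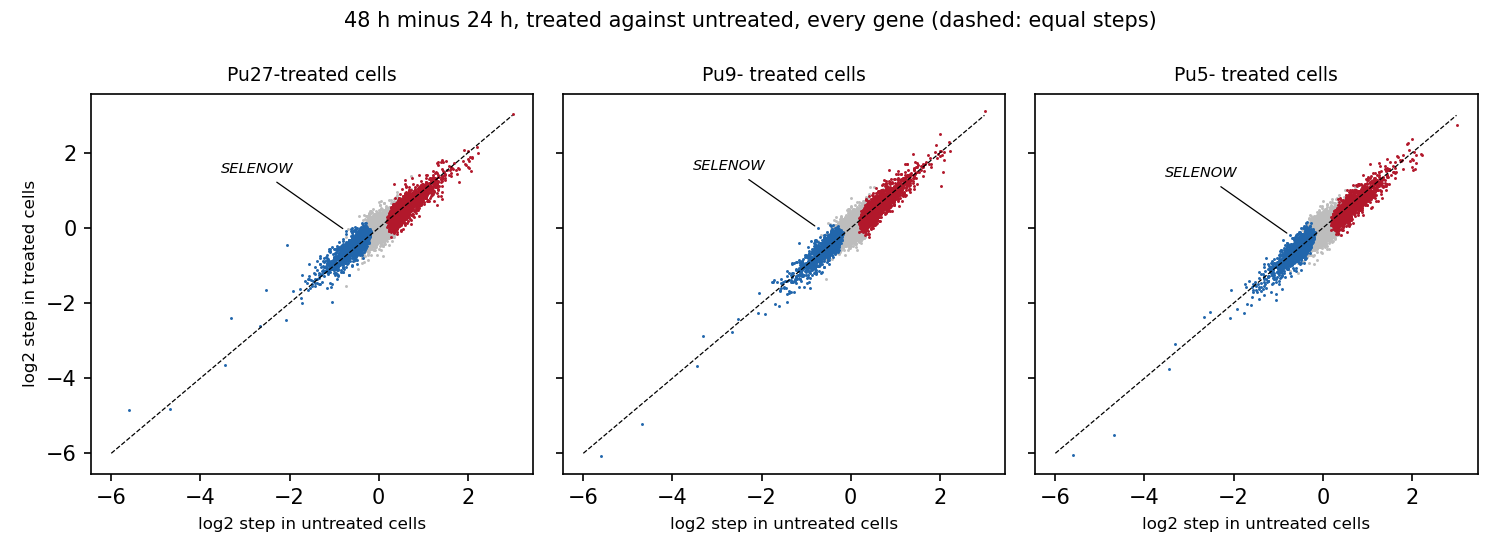
Log2 change from 24 h to 48 h of every gene in treated cells (vertical axes; Pu27, Pu9- and Pu5- from left to right) against the same step in untreated cells (horizontal axes). Red and blue genes rose and fell in untreated cells, and the dashed line marks equal steps; most genes lie near it, while SELENOW lies above it in each panel (0.66, 0.72 and 0.53).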

How the data were processed

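RNA of U937 cells was hybridised to Affymetrix 3' IVT arrays. Per the submitters' processing notes, the authors made the deposited log2 values with RMA, which corrects background, normalises quantiles and summarises probes, and also used limma, with versions not given in the sources used here. Of the 2 tables, the larger has 49495 probe sets and the smaller 49395, lacking 100 ERCC controls, with a largest difference of 0 between shared values. Columns were matched to samples by title. Of 49293 non-control probe sets 44988 had 1 gene symbol in the probe table, 1832 several and 2473 none. A gene was represented by its brightest probe set, averaged over all 39 arrays, which gave 18132 genes, 11734 of them with several probe sets to choose from. Dim genes were kept, and no detection call was available. The number of arrays limits the precision.

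limma 3.58.1 in R 4.3.3 fitted 1 mean per group to 39 arrays (26 residual and 7.13 prior degrees of freedom), also on all probe sets, and was tested on simulated data. P-values were adjusted by Benjamini and Hochberg's method across every gene of a contrast. Values after ± are standard errors with 3 arrays per group. The 44 gene lists (933 of 1010 entries measured) are described by counts and medians. The genes open to naming, not each of which is printed, were MYC, the 15 genes that rose most and the 15 that fell most, provided that they passed without overlap, had a higher group averaging log2 6 or above and a symbol not starting with LOC or LINC, the 4 largest changes of each list and the 3 smallest adjusted p-values of each difference of steps, and the 5 genes whose probe sets disagreed most; any gene outside this rule was picked with its values in view. The members, lists and tests were chosen with earlier results of these data known. Promoters came from RefSeq, 250 bases before to 50 after the start, for 14425 of the genes; 14 pairs of a motif and a list were searched, 5 of them added after the data were seen, and the 6 promoters printed were picked from 10 because they hold a match. Alternatives changed the arrays fitted, the replicate block, the ACTB covariate, the probe set rule, a filter at a mean log2 of 5, the scaling and the variance prior.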

Additional observations from a re-analysis of the deposited data

Results flagged for a closer look

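TTC21A, which encodes a tetratricopeptide repeat protein, drew attention because its arrays moved in opposite directions in untreated and Pu27-treated cells. Only genes open to naming were searched for this, and the share of all genes with such steps was not counted. TTC21A was among them for its small p-value in the Pu9- difference of steps, which uses the same untreated arrays. In untreated cells TTC21A stood at 6.06, 6.02 and 6 at 24 h and at 6.6, 6.32 and 6.39 at 48 h, a rise of 0.41 ± 0.12 (adjusted p = 0.013). With Pu27 every 48 h array lay below every 24 h array, with a step of -0.17 (adjusted p = 0.4). The difference of the steps was -0.58, which did not pass limma's test over all genes (adjusted p = 1, unadjusted 0.0021). The other probe set of TTC21A gave 0.08 in untreated cells, and the call there was lost in 5 of 19 settings.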

How the results depend on the processing

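In the 19 alternative settings the count of changed genes ranged from 2371 to 4586, and of 166 named genes that were called 133 kept the call in every setting that gave a value and 0 reversed. Without all arrays of 1 replicate number or 1 compared array, the count ranged from 2371 to 3876, that of rises from 1330 to 2221, that of falls from 1041 to 1783 and that of probe sets from 5282 to 9026, with the lowest values without replicate 2. Without replicate 3, 1407 genes rose and 6367 probe sets changed. The step with Pu9- differed from the untreated step for 1 gene, SELENOW, with the replicate block, the block with the ACTB covariate, the mean of all probe sets, the filter on dim genes, the common median, quantile normalisation and without untreated 24 h replicate 1 (0 to 1 genes over the arrays left out). By expression the replicate numbers did not meet the condition set for pairing: deviations of same-numbered 24 h and 48 h arrays correlated at -0.08, 0.29 and 0.07, and not every array correlated best with its own number. The spiked controls did move with the number. With the replicate block 4586 genes changed, 4083 of the reported ones among them. Of 44 list medians 42 moved in at least 1 setting by over 1 standard deviation of the list's mean between arrays of a time. In 11 pairs of a list and a setting the median was labelled reversed. The median of the iron handling list, -0.05, was 0.02 with the mean of all probe sets and ranged from -0.07 to 0.04 over the arrays left out, above 0 without untreated 24 h replicate 2 (0.03), untreated 48 h replicate 3 (0.01) or replicate 2 (0.04). Of 21 list medians above 0, the shift to a common median took 12 below 0 and 1, that of transfer RNA synthetases, to 0: G2/M, hypoxia and DNA repair (each -0.01), ribosomal proteins and erythroid markers (-0.02), epithelial markers (-0.03), cholesterol efflux and immature myeloid markers (-0.07), and p53 targets, interferon genes, T and NK and fibroblast markers (-0.08). That of B cell markers, 0.1, ranged from -0.03 (without replicate 1) to 0.23 over the arrays left out, and was -0.01 without untreated 48 h replicate 1. The causes were not tested. Signal over background limits genes under a mean log2 of 4, of which 0.853% rose and 0.604% fell, against 22.9% and 19.9% of those at 10 or more. The mean of probe sets was not run for the count of probe sets.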

Other observations

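In untreated cells between 24 h and 48 h, 7 of 32 measured interferon genes rose and 2 fell, or 28.1% called beside 22.5% of all genes, with a median of 0.01 (-0.08 with arrays shifted to a common median). The RNA sensor IFIH1 rose by 0.94, XAF1, an interferon-induced partner of an apoptosis inhibitor, by 0.88 and the ligase HERC5 by 0.81, whereas IFIT2, which binds viral RNA, fell by 0.91. IFIT2 was dim at both times (5.03 and 4.13). ISG15 (-0.06) and OAS1 (-0.02) were not called. Of 27 splicing regulators 10 fell and 3 rose, or 48.1% called beside 22.5% of all genes. That list averaged 11.23 at 24 h and 11.12 at 48 h. Of genes averaging log2 10 or more, 19.9% fell and 22.9% rose. SRSF6 and the cold-inducible CIRBP both changed by -0.81, TRA2B by -0.65 and PNISR by 0.79. The falls numbered 5 without the replicate 2 arrays. Of 11 genes of metallothioneins and zinc transport 6 fell, beside 10.4% of all genes, and MT1F rose by 0.31. They were led by MT1X (-0.67), the zinc transporters SLC39A14 (-0.54) and SLC30A1 (-0.45) and MT1E (-0.44). The call of SLC30A1 was lost in 8 settings, and that of SLC39A14 with the mean of all probe sets (adjusted p = 0.075). The falls of this list numbered 2 without the replicate 3 arrays. Of 24 clustered histone genes H2BC12 (-0.5) and H3C1 (-0.4) fell, or 8.33% called, with a median of 0. The calls of H2BC12 and H3C1 were lost in 7 and 8 settings, and H3C1 was dim (4.05 and 3.65). None of the 24 was called lower without untreated 24 h replicate 1. Of 16 p53 targets 2 rose and 4 fell, or 37.5% called beside 22.5% of all genes. Of genes averaging log2 7 to 8, near the level of this list, 19.2% rose and 15.3% fell. The falls were led by AEN (-0.92), PLK3 (-0.65) and MDM2 (-0.59), and CDKN1A (-0.18) was not called. Without the replicate 2 arrays 2 fell. Of 19 hypoxia genes 5 rose and 1 fell, or 31.6% called beside 22.5% of all genes. They averaged 7.95 at 24 h and 8.12 at 48 h. Of genes averaging log2 8 to 9, 22.3% rose and 21.6% fell. BNIP3L, which marks mitochondria for removal, led (1.05), with VEGFA at 0.57 and NDRG1 at -0.62, and 3 rose without untreated 48 h replicate 2. ATM, a kinase of the DNA damage response, rose by 0.98 while the related ATR fell by 0.49, and BRIP1 and CHEK2, also of DNA repair and checkpoints, rose by 0.56 and 0.47.

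Of 21 selenoprotein genes 8 fell and none rose, or 38.1% called beside 22.5% of all genes, with a median of 0.1. Of genes averaging log2 8 to 9, near the mean level of this list, 21.6% fell and 22.3% rose. SELENOS, of the machinery that removes misfolded proteins from the endoplasmic reticulum, fell by 0.85 and MSRB1, which repairs oxidised methionine, by 0.82. The falls numbered 4 without the replicate 2 arrays, and the change of SELENOS ranged from -0.94 to -0.29 over the settings. Of 25 genes of nucleotide and folate synthesis 6 fell and 1 rose (median -0.11), or 28% called beside 22.5% of all genes. Of genes averaging log2 10 or more, near the level of this list, 19.9% fell and 22.9% rose. Its falls were led by CTPS1, which makes CTP (-0.93), UMPS of pyrimidine synthesis (-0.8), PFAS of purine synthesis (-0.68) and DCTPP1 (-0.65). Of 31 lysosome and autophagy genes 6 rose and 3 fell (29% called, beside 22.5% of all genes, median -0.01). They averaged 8.74 at 24 h and 8.79 at 48 h, and of genes averaging log2 8 to 9, 22.3% rose and 21.6% fell. WIPI1, an autophagy protein, changed by 0.89 and the lysosomal glucosidase GAA by 0.82. The autophagy receptor SQSTM1 changed by -0.72 and the proton pump subunit gene ATP6V0D1 by -0.76. Among 10 genes of cholesterol efflux, the lysosomal cholesterol exporter NPC1 fell by 0.99 while its partner NPC2 rose by 0.52 and MYLIP, which degrades the LDL receptor, by 0.43. Of 17 circadian genes BHLHE41 (0.66) and DBP (0.43) rose and PER2 (-0.47) and TEF (-0.36) fell, or 23.5% called beside 22.5% of all genes. PER2 lost its call in 2 settings (-0.12, adjusted p = 0.23 with the mean of all probe sets) and BHLHE41 without the replicate 2 arrays (adjusted p = 0.062), which left 1 rise. Of 18 granule protein genes SERPINB1 (0.58) and CFD (0.56) rose and SRGN (-0.34) and CTSC (-0.24) fell, or 22.2% called beside 22.5% of all genes. Neither fall was called without the replicate 2 arrays. Of the S100 genes and annexins, ANXA4 rose by 0.72.

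FAP, a cell surface protease listed as a fibroblast marker, was the single member called among the markers of T and NK, B, erythroid and platelet, epithelial and fibroblast cells. It stood at 9.07, 8.58 and 8.51 at 24 h and at 7.97, 7.52 and 7.52 at 48 h, a 2.07-fold fall (adjusted p = 0.00049), while COL1A1 stood at 5.01 and 4.94 and DCN at 3.68 and 3.67.

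Of 2203 genes with more than 1 called probe set, 93 had probe sets called in opposite directions. In ALG13, a subunit of an enzyme of glycan synthesis, one probe set rose by 1.22 (8.05 to 9.26) and another fell by 1.53 (8.98 to 7.44). In FUBP1, a single-stranded DNA-binding protein, the changes were 1.18 and -1.92, and in HNRNPD, an RNA-binding protein that promotes decay of AU-rich transcripts, 2.06 and -0.87. The pairs of RNF213 (1 and -1.14) and ATP11B (0.82 and -0.82) complete the 5 that disagreed most. RPL35A, the ribosomal protein gene outside the list and named after its values were seen, fell by 1.54 on its brightest probe set. Its others gave -0.11 and -0.22 and were not called. Which transcripts these probe sets detect was not tested.

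The letters TTTGAA were in 20 of 29 promoters of G2/M genes and in 12.1% of all promoters, and CCAAT was in 20 of 29 and in 36.4%, in a list of which 6 of 35 genes changed. The E2F letters TTGGCGC were in 9 of 34 replication gene promoters (4.27% of all), NACGTG, which takes in every CACGTG, in 8 of 14 hypoxia gene promoters (23.8%), TGCNCNC in 5 of 6 metallothionein and zinc gene promoters (60.8%) and TGACNNNGC in 4 of 15 NRF2 target promoters (14.4%).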
